A study of Homo sapiens with 2 samples.

Results

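Readings of 10 drug resistance genes were examined in HCT-8/V, a derivative of the human colon cancer cell line HCT-8 that is resistant to vincristine, and in HCT-8 itself. The genes are 9 ATP-binding cassette (ABC) transporters linked to drug efflux or lipid transport (ABCB1, ABCG2, ABCC2, ABCC3, ABCC4, ABCC5, ABCC10, ABCA2 and ABCA3) and MVP, which encodes the major vault protein. They were chosen by name, and every probe that the platform annotation assigns to them was taken, giving 16 probes of the 30113 probes with 1 gene symbol and 10 genes of 20046. Total RNA was hybridised to Illumina bead arrays, 1 array per line, taken 48 h after the cells received a Twist expression plasmid (pcDNA3.1-Twist), which the labels give for both lines. No array without the plasmid was analysed here. With 1 array per line no test was possible, so all differences are described by size, and a difference between the cell lines, the cultures and the arrays cannot be told apart. The labels do not settle whether either culture was meant as an untreated control, and if so an effect of the plasmid could not be told apart from these either.

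ABC transporters use the energy of ATP to move substrates across membranes, and several of them pump anticancer drugs out of cells. Vincristine, a vinca alkaloid that binds tubulin, is a classic substrate of the ABCB1 product, P-glycoprotein, and overexpression of ABCB1 is the best known mechanism of resistance to it. MVP is not a transporter. Its product is the main building block of vaults, large hollow ribonucleoprotein particles of the cytoplasm, and it is also known as lung resistance-related protein because it was found overexpressed in drug-resistant cells.

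Intensities are on the authors' linear, background-subtracted scale, on which values below 0 occur. The median over all 47323 probes, 12.42 in HCT-8/V and 12.44 in HCT-8, served as a floor, and lower values were raised to it before log2 was taken. A probe above the floor on at least 1 array is called measured, and one above the 75th percentile of all probes (81.3) on at least 1 array is called bright. Of 14 colon epithelial markers on the arrays, 7 were below the floor in both lines (CDX1, CDX2, VIL1, LGALS4, KRT20, CEACAM5 and the E-cadherin gene CDH1), with CDH1, VIL1 and LGALS4 below 0 in both. KRT8 (2283 in HCT-8/V and 2199 in HCT-8), KRT18 (560 in HCT-8/V and 445 in HCT-8) and EPCAM (80.0 in HCT-8/V and 117 in HCT-8) were bright, and the marker list summed to 3069 in HCT-8/V and 2921 in HCT-8. Of the other marker lists, 4 of 8 fibroblast, 1 of 5 immune, 0 of 4 endothelial, 1 of 5 mesothelial and 1 of 5 trophoblast genes were bright. Over all 20046 genes, each by its brightest probe, 13763 were measured and 8009 were bright. The bright fibroblast genes were VIM (5944 in HCT-8/V and 5921 in HCT-8), DCN (854 in HCT-8/V and 625 in HCT-8), PDGFRB (218 in HCT-8/V and 149 in HCT-8) and COL1A1 (87.7 in HCT-8/V and 53.6 in HCT-8). By brightest probe all were higher in HCT-8/V, as were 53.5% of all bright genes, with a median log2 difference of 0.50 and with VIM at 0.01. The mean of all probes gave -0.10 for VIM, the opposite direction, and 0.14 for DCN, which had 0.45 by its brightest probe. The fibroblast list summed to 7186 in HCT-8/V and 6843 in HCT-8, and THY1 was below 0 in both. The bright immune gene was CD68 (1153 in HCT-8/V and 844 in HCT-8), while PTPRC and CD3E were below the floor in both lines, and the list summed to 1213 in HCT-8/V and 904 in HCT-8. The bright mesothelial gene was MSLN (5251 in HCT-8/V and 4828 in HCT-8) and the bright trophoblast gene CGA (810 in HCT-8/V and 860 in HCT-8). The part of these markers in the differences below was not tested. The intestinal markers CDX1, CDX2 and VIL1 thus gave no measured signal in either line. Of the same list, CDH17 (65.6 in HCT-8/V and 66.4 in HCT-8) and GPA33 (47.1 in HCT-8/V and 40.9 in HCT-8) were above the floor in both lines but not bright. KRT19 read 12.8 in both lines, and LGR5 (6.15 in HCT-8/V and 22.6 in HCT-8) passed the floor in HCT-8 alone. The colon markers were therefore mixed, and the lines are called here by their labels. Fewer cells of a type and less RNA per cell cannot be told apart in such bulk samples.

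Of the 16 probes, 11 were above the floor in both lines, 1 in HCT-8 alone and 4 in neither. The 12 measured probes stand for 9 of the 10 genes, and 9 of them, from 7 genes, were bright. No measured probe was at least 2-fold higher in HCT-8/V, and 1 was lower by that much, where 4.15% of all 18739 measured probes passed 2-fold upwards and 4.40% downwards. Of the 9 bright probes 0 passed 2-fold in either direction, where 0.833% of 10079 bright probes did so upwards and 1.09% downwards. By direction alone, HCT-8/V had the higher reading at 7 of the 12 probes and the lower at 5, and the higher at 50.1% of all measured probes. The median log2 difference (HCT-8/V minus HCT-8) was 0.10 over the 12 probes and 0.00 over all measured probes, and the median size of the difference was 0.25 over the 12 and 0.32 over all.

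**Figure D1:**
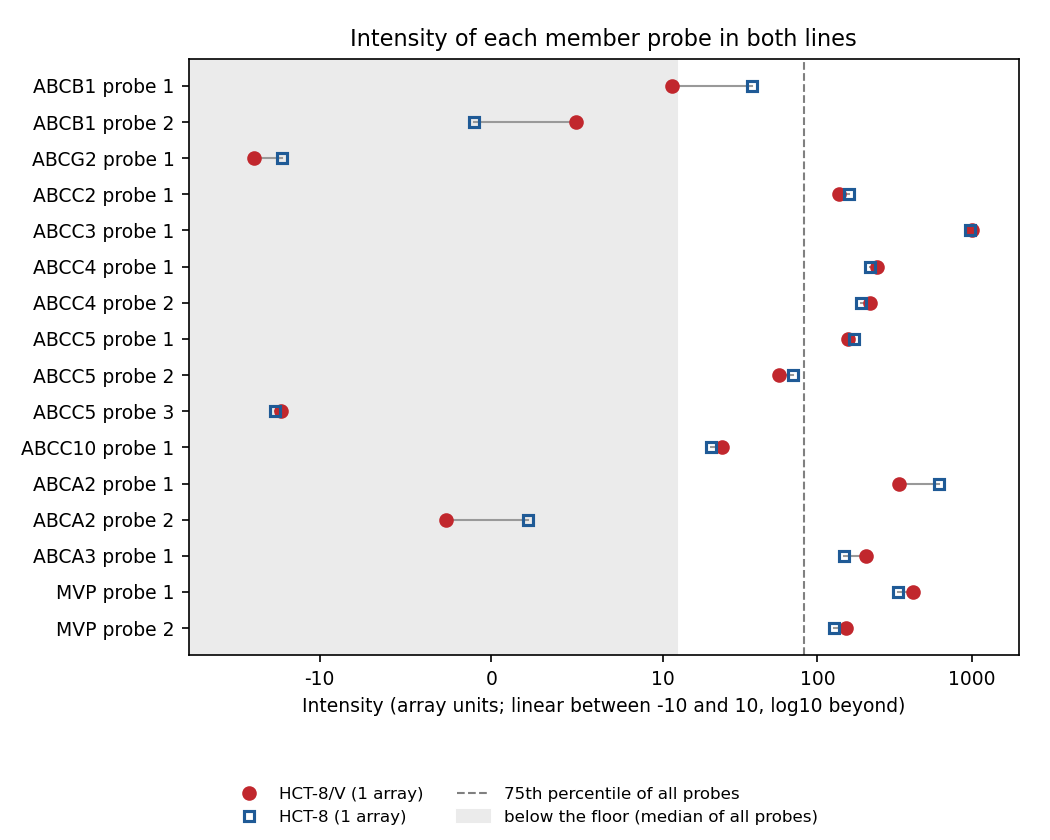
Intensity of each of the 16 probes (rows) in HCT-8/V (red circles) and HCT-8 (blue squares), 1 array each, in array units on an axis that is linear between -10 and 10 and logarithmic beyond. The grey area lies below the floor of 12.42 and the dashed line marks the 75th percentile, 81.3; most pairs of points lie close together, and the wider gaps to the right of the floor are those of ABCA2 probe 1 and, reaching from below the floor, ABCB1 probe 1.

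The start regions of 4 of the genes are shown for reference: ABCB1, because its product exports vincristine, and ABCA2, ABCA3 and MVP, because their bright probes differed most. Each line gives the 250 bases before an annotated start, 5′ to 3′ on the gene's strand, from RefSeq (GRCh38.p14). Capitals mark E-boxes (CANNTG, the kind of site that TWIST1 and other basic helix-loop-helix factors bind), CCAAT boxes (CCAAT or ATTGG), GC boxes (GGGCGG or CCGCCC) and antioxidant response element cores (TGACNNNGC or GCNNNGTCA), found on both strands, and neighbouring or overlapping motifs run together.
ABCB1, chr7:87600885-87601134, minus strand: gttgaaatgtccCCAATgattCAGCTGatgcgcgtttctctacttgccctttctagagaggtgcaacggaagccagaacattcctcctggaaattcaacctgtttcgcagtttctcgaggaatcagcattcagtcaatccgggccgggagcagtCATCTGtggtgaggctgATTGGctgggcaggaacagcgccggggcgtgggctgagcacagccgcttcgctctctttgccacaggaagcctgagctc
ABCA2, chr9:137028238-137028487, minus strand: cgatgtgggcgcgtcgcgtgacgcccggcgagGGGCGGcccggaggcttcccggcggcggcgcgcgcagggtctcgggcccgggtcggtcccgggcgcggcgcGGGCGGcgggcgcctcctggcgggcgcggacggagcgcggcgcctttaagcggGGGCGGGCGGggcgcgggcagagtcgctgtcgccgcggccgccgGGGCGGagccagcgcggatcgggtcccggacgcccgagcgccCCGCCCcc
ABCA3, chr16:2340729-2340978, minus strand: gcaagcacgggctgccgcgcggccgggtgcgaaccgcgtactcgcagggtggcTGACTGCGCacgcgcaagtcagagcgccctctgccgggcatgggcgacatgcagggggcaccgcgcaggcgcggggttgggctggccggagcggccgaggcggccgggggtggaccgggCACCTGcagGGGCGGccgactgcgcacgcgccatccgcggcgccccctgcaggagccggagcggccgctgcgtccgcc
MVP, chr16:29820144-29820393, plus strand: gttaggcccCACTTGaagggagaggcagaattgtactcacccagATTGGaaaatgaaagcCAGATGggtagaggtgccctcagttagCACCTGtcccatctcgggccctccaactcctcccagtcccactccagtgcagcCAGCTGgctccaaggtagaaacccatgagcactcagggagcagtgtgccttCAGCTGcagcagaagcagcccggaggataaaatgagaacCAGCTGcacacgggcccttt
The ABCB1 region holds 2 E-boxes and 2 CCAAT boxes and no GC box. The ABCA2 region, 85.6% G and C, holds 6 GC boxes and no E-box, the ABCA3 region 1 E-box, 1 GC box and 1 antioxidant response element core, and the MVP region 6 E-boxes and 1 CCAAT box. ABCB1 and ABCA2 each have another annotated start and MVP has 2 more. Over all 18 annotated start regions of the 9 matched genes, some of which overlap, 12 hold an E-box, 2 a CCAAT box, 6 a GC box and 4 an antioxidant response element core, and over all 35114 start regions of this length the shares are 61.8%, 32.0%, 42.6% and 10.9%. ABCC3 was not matched. A match describes these letters and was not set against any binding measurement.

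ABCB1 gave no sign of a higher level in the vincristine-resistant line by its brighter probe, and neither of its probes was bright. Probe 1 (ILMN_1812070) read 11.4 in HCT-8/V and 37.7 in HCT-8. The floor was passed by HCT-8 alone. Against the floor, HCT-8/V was lower by at least 3.03-fold (log2 difference -1.60), which made this the 1 probe past 2-fold. Probe 2 (ILMN_2094875) read 4.94 in HCT-8/V and -0.986 in HCT-8, below the floor in both, and pointed the other way. Both probes are assigned to the same transcript, so the annotation gives no isoform by which they would differ. The gap of -26.2 units at probe 1 compares with a standard deviation of 10.7 units between the arrays over 13272 probes with a mean below 0. Over 8233 named probes between 10 and 40 on at least 1 array it was 17.5 units, and 11.7% of them differed by as much as probe 1. The gap of 5.92 units at probe 2 was within both standard deviations. Among the 2214 measured probes of like brightness, meaning that their brighter reading was within 25% of that of probe 1, 5.42% had a log2 difference at least as large.

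ABCG2, the breast cancer resistance protein and a half-transporter that exports mitoxantrone and topoisomerase inhibitors, was below the floor in both lines. Its single probe (ILMN_1789641) read -26.7 in HCT-8/V and -17.5 in HCT-8, so no fold is given. A reading below 0 says that the probe gave no signal over the authors' background, not that the transcript was absent.

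The 5 genes of the C subfamily, the multidrug resistance-associated proteins, that are described here each differed by at most 1.24-fold at any measured probe. ABCC3, which exports glucuronide conjugates across the basolateral membrane, read 1002 in HCT-8/V and 970 in HCT-8, a log2 difference of 0.05, and 89.8% of 1008 probes of like brightness differed by at least as much. ABCC2, an apical exporter of drug conjugates that also carries vinca alkaloids, read 137 in HCT-8/V and 159 in HCT-8 (log2 difference -0.21). Both genes had a single probe (ILMN_1677814 and ILMN_1676278), and both were bright in both lines. The resistant line was therefore within 1.15-fold of its parent at each of them.

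ABCC4, an exporter of cyclic nucleotides and nucleotide analogues, had 2 bright probes that are assigned to the same transcript. Probe 1 (ILMN_1788457) read 244 in HCT-8/V and 219 in HCT-8, and probe 2 (ILMN_2194009) read 218 in HCT-8/V and 191 in HCT-8. Their log2 differences of 0.16 and 0.19 lay 0.03 apart, where the median gap between the 2 brightest probes of a gene was 0.28 over 1782 genes with 2 or more bright probes. Both were slightly higher in HCT-8/V, and 66.3% and 62.7% of probes of like brightness differed by as much.

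ABCC5 transports a similar range of nucleotide substrates, and its 3 probes fall on 2 annotated transcripts. Probe 1 (ILMN_1706531), on the first transcript, read 157 in HCT-8/V and 172 in HCT-8 (log2 difference -0.14). Probe 2 (ILMN_1651964), on the other, read 56.4 in HCT-8/V and 69.7 in HCT-8 (log2 difference -0.31). Probe 3 (ILMN_2302358), also on that transcript, read -17.8 in HCT-8/V and -19.5 in HCT-8, below the floor in both lines. The 2 measured probes were both lower in HCT-8/V, and probes 2 and 3, although assigned to the same transcript, lay on opposite sides of the floor.

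ABCC10, which in transfected cells confers resistance to taxanes and vinca alkaloids, was dim. Its single probe (ILMN_1776119) read 24.0 in HCT-8/V and 20.4 in HCT-8, a log2 difference of 0.24. The gap of 3.63 units was smaller than the 10.7 units between the arrays over probes with a mean below 0, and 86.0% of 2815 probes of like brightness had a log2 difference at least as large.

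ABCA2, an endolysosomal lipid and sterol transporter that has been linked to resistance to estramustine, had the largest difference among the bright probes of the 10 genes. Probe 1 (ILMN_1747627) read 339 in HCT-8/V and 613 in HCT-8, 1.81-fold lower in the resistant line (log2 difference -0.86). Of 1384 probes of like brightness, 1.66% differed by as much. It was the 1 bright probe of the 9 past 1.5-fold, and over all 10079 bright probes 6.70% passed 1.5-fold downwards and 6.41% upwards. Probe 2 (ILMN_1687636) read -2.62 in HCT-8/V and 2.13 in HCT-8, below the floor in both, so it gave no second measurement of the gene. With the mean of both probes after flooring, the log2 difference was -0.43.

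ABCA3, the lipid transporter of lamellar bodies in lung alveolar cells, which has been linked to drug sequestration in leukaemia cells, was higher in HCT-8/V. Its single probe (ILMN_1758523) read 206 in HCT-8/V and 149 in HCT-8, 1.38-fold higher (log2 difference 0.47). Of 1851 probes of like brightness, 26.3% differed by as much. The standard deviation of the log2 differences across all bright probes was 0.40, a little below the size of the ABCA3 difference.

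**Figure D2:**
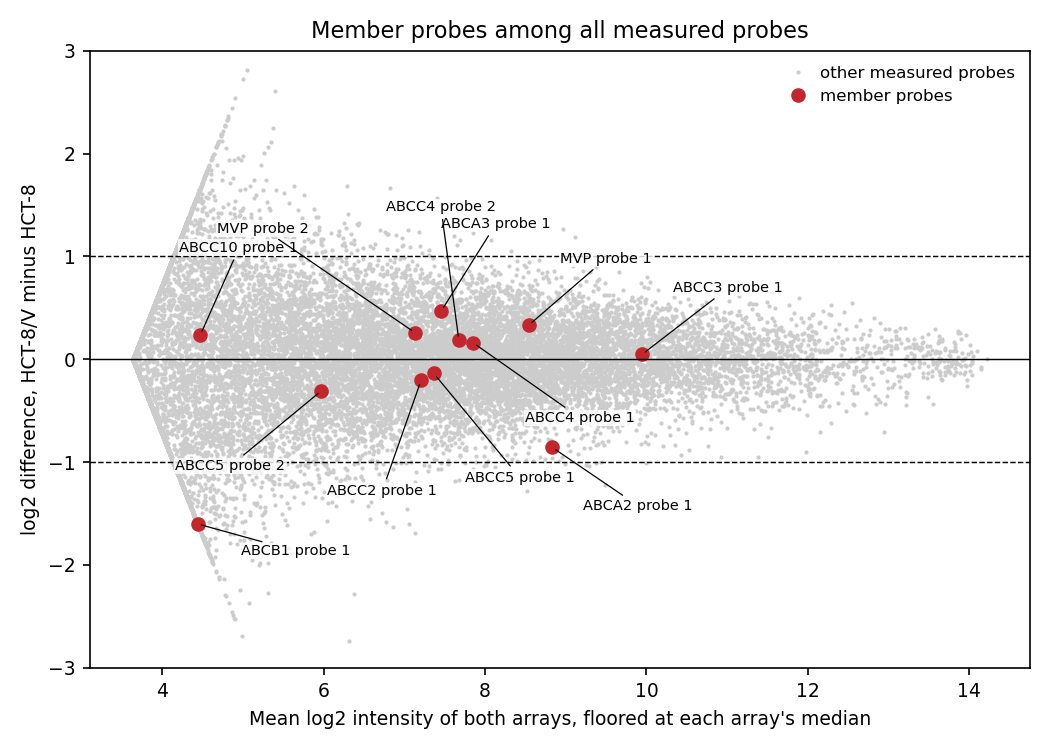
Log2 difference (HCT-8/V minus HCT-8, vertical axis) against the mean log2 intensity of both arrays after flooring (horizontal axis) for all measured named probes (grey) and the 12 measured probes of the 10 genes (red, labelled), with dashed lines at 2-fold. ABCB1 probe 1, at -1.60, lies on the edge formed by probes that are at the floor in HCT-8/V, and ABCA2 probe 1, at -0.86, lies at the lower margin of probes of its brightness.

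MVP was slightly higher in HCT-8/V by both of its probes, which are assigned to different transcripts. Probe 1 (ILMN_1803277) read 418 in HCT-8/V and 332 in HCT-8, and probe 2 (ILMN_2344373) read 153 in HCT-8/V and 128 in HCT-8. These are log2 differences of 0.33 and 0.26, or 1.26-fold and 1.20-fold, 0.07 apart. Of probes of like brightness, 37.3% and 52.3% differed by as much. The 2 brightest probes of a gene had the same direction in 60.0% of the 1782 genes with 2 or more bright probes, so the shared direction in MVP and ABCC4 was the more common outcome on these arrays.

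Among the other components of vaults, PARP4, the vault poly(ADP-ribose) polymerase, read 723 in HCT-8/V and 579 in HCT-8 (log2 difference 0.32). Of 4 genes listed as vault partners and matched on the arrays 2 were measured. Both were higher in HCT-8/V, as were 52.8% of all measured genes. The other was the dim VTRNA2-1, named after its value was seen, at 57.3 in HCT-8/V and 40.6 in HCT-8. This small RNA is listed with the vault RNAs by name alone and is not taken here as a component of vaults. PARP4 was therefore the only measured vault component of the list. The vault RNAs VTRNA1-1 and VTRNA1-2 were below the floor in both lines. None of these differed by 2-fold, and over all 13763 measured genes, each by its brightest probe, 4.24% passed 2-fold upwards and 3.77% downwards.

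The remaining ABC genes were also mixed in direction. Of 39 other ABC genes listed, 35 could be analysed here, and 26 were measured. HCT-8/V had the higher reading at 14 of them and the lower at 12, and the higher at 52.8% of all measured genes. Their median log2 difference was 0.04, and that of all measured genes 0.03. Past 2-fold were 4 genes, 3 higher and 1 lower, where 4.24% of all measured genes passed upwards and 3.77% downwards. All 4 were of subfamily A and dim, and of all 8660 dim probes 693 passed 2-fold upwards and 714 downwards. They are named here after their values were seen. The cholesterol exporter gene ABCA1 read 74.8 in HCT-8/V and 23.9 in HCT-8 (3.13-fold higher), the retinal transporter gene ABCA4 51.8 in HCT-8/V and 20.0 in HCT-8 (2.59-fold higher), and ABCA10 35.8 in HCT-8/V and 12.3 in HCT-8 (at least 2.88-fold higher). ABCA9 read 17.4 in HCT-8/V and 35.5 in HCT-8 (2.04-fold lower). The log2 differences of the last pair were 0.58 for ABCA10 and -0.51 for ABCA9 with the mean of all probes, while ABCA1 and ABCA4 had a single probe each.

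Of the 11 bright ABC genes outside the 10, HCT-8/V had the higher reading at 7 and the lower at 4, and the higher at 53.5% of all 8009 bright genes. Of the 11, 0 passed 2-fold, where 0.862% of bright genes did so upwards and 0.737% downwards. In subfamily B, the antigen peptide transporter gene TAP1 read 1728 in HCT-8/V and 1327 in HCT-8, while its partner TAP2 read 186 in HCT-8/V and 232 in HCT-8. ABCB6, linked to porphyrin transport, read 588 in HCT-8/V and 504 in HCT-8. ABCB4, the phospholipid floppase gene next to ABCB1, was below the floor in both lines (5.64 in HCT-8/V and 6.46 in HCT-8). Of 7 other C subfamily genes listed, ABCC1 and ABCC6 were not matched to a probe with 1 gene symbol. Their levels were therefore not analysed here. Of the 5 that were matched 0 were bright and 2 were measured, each in 1 line alone. ABCC11 read 9.78 in HCT-8/V and 19.6 in HCT-8, at least 1.58-fold lower, and the chloride channel gene CFTR read 19.8 in HCT-8/V and -13.0 in HCT-8, at least 1.59-fold higher, both named after their values were seen. Both readings are near the floor, and the log2 difference of ABCC11 was -0.66 by its brightest probe and -0.17 with the mean of its 3 probes. In the other subfamilies, ABCA7 (223 in HCT-8/V and 179 in HCT-8), the sterol exporter gene ABCG1 (355 in HCT-8/V and 315 in HCT-8) and the translation factor gene ABCF1 (1141 in HCT-8/V and 960 in HCT-8) were higher. The peroxisomal ABCD3 (200 in HCT-8/V and 244 in HCT-8), the ribosome recycling factor gene ABCE1 (267 in HCT-8/V and 365 in HCT-8) and ABCF2 (141 in HCT-8/V and 158 in HCT-8) were lower.

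**Figure D3:**
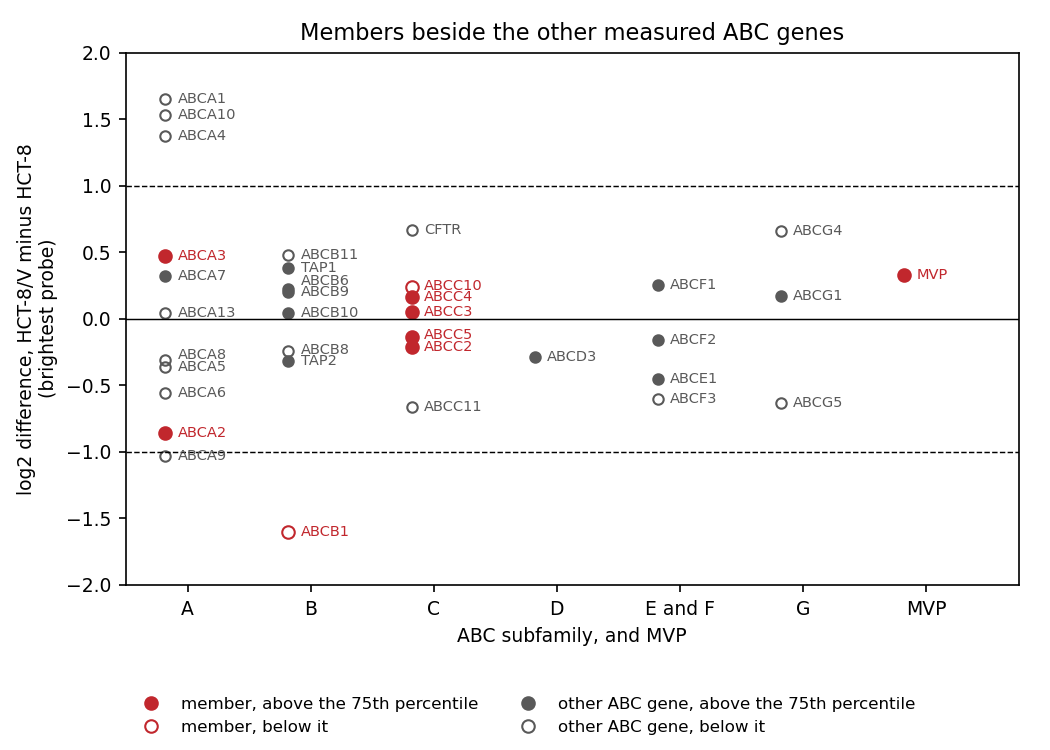
Log2 difference (HCT-8/V minus HCT-8) of the brightest probe of each measured ABC gene, by subfamily, and of MVP; red marks the genes described here, grey the other ABC genes, and filled circles those above the 75th percentile on at least 1 array. The genes past the dashed 2-fold lines, ABCB1 and 4 of subfamily A, are all open circles.

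Transcriptional regulators of efflux transporter genes were split. Of 24 on the arrays 22 were measured, with HCT-8/V higher at 10 and lower at 12, against 52.8% of all measured genes higher. Their median log2 difference was -0.12, and that of all measured genes 0.03. Among them, YBX1, the Y-box factor, read 3560 in HCT-8/V and 4056 in HCT-8, and CEBPB 6496 in HCT-8/V and 5665 in HCT-8. The aryl hydrocarbon receptor gene AHR read 6015 in HCT-8/V and 4729 in HCT-8, with its direction turned by the mean of its 2 probes (log2 difference 0.35 by the brightest and -0.16 by the mean). SP1, which binds GC boxes, read 593 in HCT-8/V and 385 in HCT-8, and the sterol sensor gene NR1H3 read 385 in HCT-8/V and 242 in HCT-8. The beta-catenin gene CTNNB1 read 201 in HCT-8/V and 371 in HCT-8 by its brightest probe (log2 difference -0.89), but the mean of its 7 probes gave -0.04. Past 2-fold was 1 regulator, where 3.77% of measured genes were past it downwards and 4.24% upwards. Named after its value was seen, it was the dim NFYA, a subunit of the factor that binds CCAAT boxes, at 18.3 in HCT-8/V and 64.8 in HCT-8 (log2 difference -1.83, and -0.91 with the mean of its 2 probes). The regulators that were not measured were the receptor gene NR1I3, below 0 in both lines, and ARNT (3.92 in HCT-8/V and 0.361 in HCT-8).

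Of 12 measured genes for proteins that anchor or traffic these transporters, 8 were lower in HCT-8/V and 4 higher, with a median log2 difference of -0.32, and 52.8% of all measured genes were higher. Among the 10 bright genes of that list 6 were lower and 4 higher, and 53.5% of all bright genes were higher. Of the ezrin, radixin and moesin genes, which tie apical transporters to actin, EZR read 3389 in HCT-8/V and 2944 in HCT-8, RDX 848 in HCT-8/V and 1176 in HCT-8, and MSN 2856 in HCT-8/V and 3740 in HCT-8. The scaffold gene NHERF1 read 1014 in HCT-8/V and 729 in HCT-8. The caveolin gene CAV1 read 1474 in HCT-8/V and 1791 in HCT-8 (log2 difference -0.28, and -0.02 with the mean of its 2 probes). Past 2-fold was 1 gene, where 3.77% of all measured genes passed downwards and 4.24% upwards. It was the dim ubiquitin ligase gene MARCHF8, named after its value was seen, at 13.1 in HCT-8/V and 30.2 in HCT-8 (log2 difference -1.21, and -0.40 with the mean of its 3 probes).

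The other scalings moved no measured probe of the 10 genes by more than 0.005 on the log2 scale, and a floor or an offset shared by both arrays cannot turn a direction. These settings therefore bear on the size of the differences and not on their stability. Sizes moved most for ABCB1 probe 1, whose log2 difference was -0.54 with no floor and -1.72 with values under 1 raised to 1. With that low floor ABCB1 probe 2 also counted as measured, with a log2 difference of 2.30 in the opposite direction, and ABCA2 probe 2 with -1.09.

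**Figure D4:**
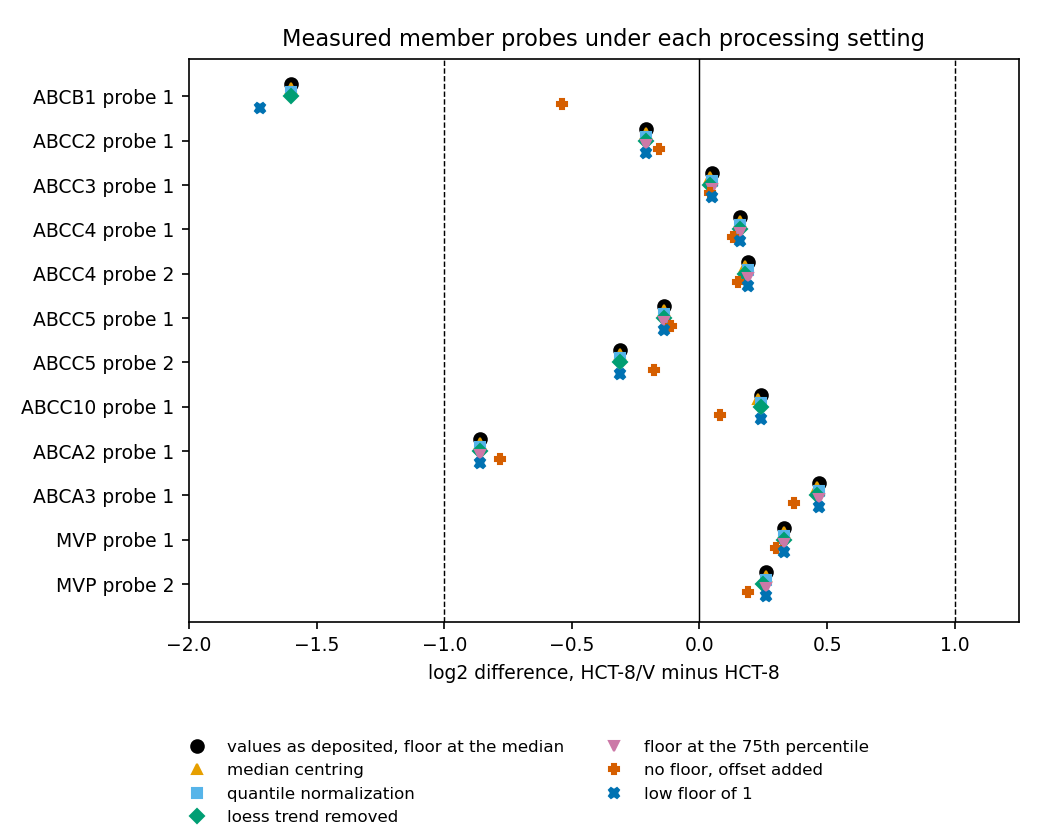
Log2 difference (HCT-8/V minus HCT-8) of each measured probe of the 10 genes under 7 processing settings, 1 symbol per setting, with dashed lines at 2-fold. The settings lie close together for every probe except ABCB1 probe 1, which spans -1.72 to -0.54; dim probes have no symbol for the floor at the 75th percentile.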

How the data were processed

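Per the labels' protocols, biotin-labelled cRNA from total RNA was hybridised to Illumina arrays. The deposited table gives a linear intensity for each probe on each array. From the values, the arrays had been background-subtracted and matched in distribution before deposit, since both have the same minimum (-44.98), 75th percentile and maximum (19759), and a shift of most genes would therefore not be visible. The method is not given in the sources used here, nor are detection p-values, and the number of arrays limits the precision.

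Probes were named from the platform annotation, which can be old, and 17210 without a single symbol were left out. Symbols were updated through the Entrez ID to RefSeq (GRCh38.p14). The members, gene lists, settings and the rule for naming genes were chosen with earlier results of these data known. By that rule every probe of the 10 genes is given, and of each other list the 3 brightest genes and the 3 with the largest difference, among bright genes and by brightest probe. The listed genes named in the text that were dim or below the floor fall outside that rule. Listed genes that were not matched were not analysed here. Calls were made by fold (2-fold, with 1.5-fold and 3-fold as alternatives), in Python 3.11.15 with pandas 2.3.3 and statsmodels 0.14.6. The computation recovered 200 of 200 changed probes simulated on 47323. That count concerns the code alone, and the precision of dim readings and of differences under 2-fold was not tested. Alternatives were median centring, quantile normalization, removal of a loess trend (span 0.3), a floor at the 75th percentile, no floor (46.0 added before log2), a floor of 1, the mean of all probes and the second brightest probe.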

Additional observations from a re-analysis of the deposited data

How the results depend on the processing

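The counts of probes past 2-fold, 0 higher and 1 lower in HCT-8/V, were the same with median centring, quantile normalization, removal of the loess trend and a 3-fold threshold. The first 3 of these moved the probes by at most 0.005 on the log2 scale, since the arrays were already matched before deposit, and so say little of stability. The count of lower probes was 0 with the floor at the 75th percentile, where ABCB1 was no longer measured, and 0 with no floor. It was 2 at 1.5-fold, ABCA2 probe 1 being added. With values under 1 raised to 1, 1 probe was higher and 2 lower, all from ABCB1 and ABCA2. By brightest probe 5 of 9 genes were higher, against 2 of 3 by the second brightest, where fewer genes had a second measured probe. The median log2 difference of the probes stayed between 0.06 and 0.16. Averaging all probes of a gene gave log2 differences of -0.80 for ABCB1 and -0.43 for ABCA2, because their second probes are at the floor. No paired analysis was possible because each line has 1 array, and no array could be left out. Readings near the floor, those of ABCB1, ABCG2 and ABCC10 among them, are limited by signal over background.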
